A study of Homo sapiens with 8 samples.

Results

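Sterol synthesis is run by a small group of genes, and 7 of them were followed here in maps of chromatin bound by mTOR, the nutrient-sensing kinase. They are SREBF1 and SREBF2, which encode the sterol regulatory element binding proteins (SREBPs), the 2 regulators SCAP and INSIG1, and the 3 enzymes HMGCS1, SQLE and DHCR7. A peak was counted for a gene when the deposited annotation named that gene as nearest and placed the peak centre within 50 kb of its transcription start site. By this rule 54 peaks of 125713 were found, 8 and 11 with shEV (EtOH and R1881) and 15 and 20 with shFoxA1.

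The cells were LNCaP, an established androgen-responsive human prostate cancer line, carrying the empty vector (shEV) or a knockdown hairpin (shFoxA1) that targets FoxA1, a forkhead pioneer factor. All groups were first starved of androgen for 48 h, with 2% charcoal-stripped serum in the medium, before they received the vehicle ethanol (EtOH, 0.1%) or 10 nM of the synthetic androgen R1881 for 24 h. Each of the 4 groups had 1 library of mTOR chromatin immunoprecipitation, so no difference has a replicate check and no p-value is given. The 4 input libraries were not analysed here. Peak lists measure neither FoxA1 nor the markers of a cell type, so the knockdown and the cell line are known from the labels only.

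SREBPs are made as membrane proteins of the endoplasmic reticulum and are bound there by SCAP, their escort. When membrane sterol is low, SCAP carries the SREBP to the Golgi, where proteases release the part that enters the nucleus and switches on sterol and fatty acid genes. When sterol is high, INSIG proteins hold SCAP in place. SREBP2, from SREBF2, acts mainly on cholesterol genes, and SREBP1, from SREBF1, mainly on fatty acid genes. mTOR complex 1 is known to promote SREBP activity, and androgens are known to raise lipid synthesis in prostate cancer cells.

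The promoter sequences come first, because peaks over them were called in some libraries and not in others. RefSeq (GRCh38.p14, the same build as hg38) held promoter windows for 6 of the 7 genes, and SQLE had none. The 250 bases before a start site were read in each. Those printed belong to the 4 genes whose window was overlapped by a peak in at least 1 list. Each runs 5′ to 3′ along the gene, with matches on either strand in capitals to CACGTG (the E-box), CCAAT (bound by NF-Y), GGGCGG (bound by Sp1) and TCACNCCAC (the core of a sterol regulatory element). Matches that overlap each other run together.
SCAP, chr3:47475942-47476191, minus strand, overlapped in all 4 lists: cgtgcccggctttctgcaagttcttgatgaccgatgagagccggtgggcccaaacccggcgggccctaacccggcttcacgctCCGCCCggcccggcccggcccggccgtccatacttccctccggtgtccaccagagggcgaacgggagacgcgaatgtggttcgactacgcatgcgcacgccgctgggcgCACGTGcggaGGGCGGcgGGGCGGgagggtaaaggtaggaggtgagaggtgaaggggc
SREBF2, chr22:41832855-41833104, plus strand, overlapped in both shFoxA1 lists: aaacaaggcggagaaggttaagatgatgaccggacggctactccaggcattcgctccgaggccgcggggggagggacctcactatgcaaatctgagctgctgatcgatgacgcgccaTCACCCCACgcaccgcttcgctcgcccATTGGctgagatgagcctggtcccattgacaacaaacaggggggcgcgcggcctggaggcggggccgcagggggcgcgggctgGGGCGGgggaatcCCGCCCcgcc
INSIG1, chr7:155297628-155297877, plus strand, overlapped in shFoxA1 EtOH only: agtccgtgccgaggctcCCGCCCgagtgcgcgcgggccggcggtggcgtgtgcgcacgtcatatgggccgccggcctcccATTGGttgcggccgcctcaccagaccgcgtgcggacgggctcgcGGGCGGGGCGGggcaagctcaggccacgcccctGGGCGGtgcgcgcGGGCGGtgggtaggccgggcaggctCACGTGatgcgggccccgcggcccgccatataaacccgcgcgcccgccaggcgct
HMGCS1, chr5:43313413-43313662, minus strand, overlapped in shFoxA1 EtOH only: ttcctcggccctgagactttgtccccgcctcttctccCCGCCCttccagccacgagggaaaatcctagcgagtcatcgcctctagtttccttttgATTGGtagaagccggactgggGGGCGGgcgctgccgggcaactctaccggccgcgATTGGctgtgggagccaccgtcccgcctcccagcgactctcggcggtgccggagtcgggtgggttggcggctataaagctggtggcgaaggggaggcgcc

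The sterol element core was present once, as TCACCCCAC at chr22:41832972-41832980, 133 bases before the SREBF2 start. Both shFoxA1 lists had a peak over it and neither shEV list did. Of 22199 such windows of coding genes, 0.883% hold this motif. The E-box, found in 7.37% of windows, stood 58 bases before the SCAP start and 55 bases before the INSIG1 start. Peaks of both shFoxA1 lists covered the SCAP E-box, whereas the shEV peaks ended upstream of it. The INSIG1 E-box was covered in shFoxA1 EtOH only. CCAAT was found in 4 of the 8 windows of the genes (32.7% of all windows) and GGGCGG in 7 of 8 (53.7%). AGAACA, a single arm of the paired element bound by the androgen receptor, was in none of the 8 (9.84% of all windows). Neither forkhead form was in them, TGTTTAC (2.45%) or TATTTAC (1.87%). A match is a string of letters and not a measured binding site.

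Counting the 6 genes with a window, 1 was overlapped in each shEV list, 4 in shFoxA1 EtOH and 2 in shFoxA1 R1881. Among 15843 coding genes with a window, the shares overlapped were 12.7%, 11.2%, 25.2% and 24.1% in the same order. The windows of SREBF1 and DHCR7 were not overlapped in any list.

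**Figure D1:**
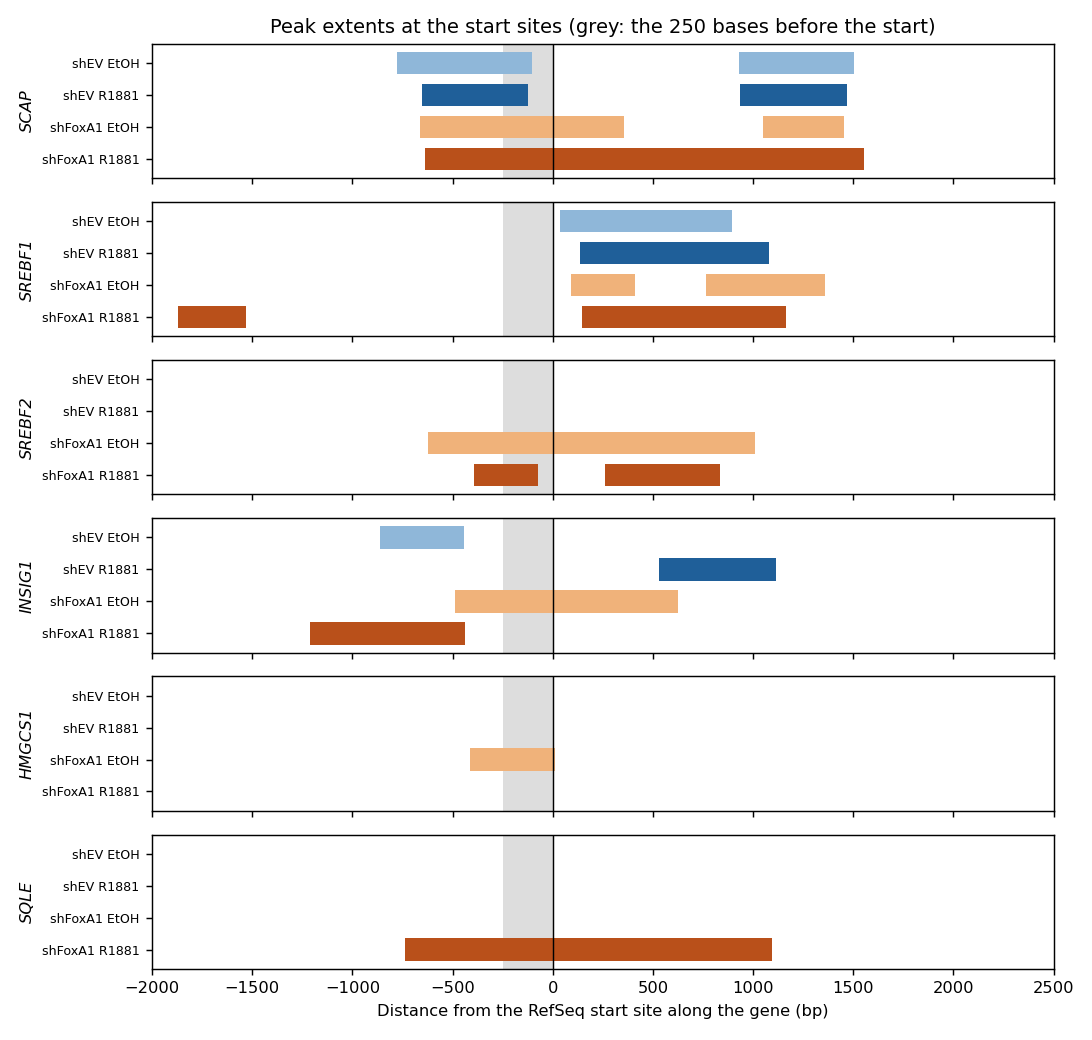
Extent of each mTOR peak around the start sites of 6 genes (horizontal axis, bp along the gene from the RefSeq start, about 2 kb to each side; 1 row per library; grey, the 250 bases before the start; bars, called peaks). SCAP has peaks in all 4 rows, SREBF2 only in the shFoxA1 rows, and SREBF1 has a peak just after the start in all 4 rows and one upstream in shFoxA1 R1881.

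The 4 lists differed in length before any gene was considered. On chromosomes 1 to 22, X and Y the shEV lists held 24948 (EtOH) and 26074 (R1881) peaks, and the shFoxA1 lists 35121 and 39570. Read totals do not accompany the lists, so depth is unknown, and the part of list length in the differences below was not tested. A protein-coding gene had a peak within 50 kb in 36.5%, 37.5%, 49.1% and 51.6% of cases in that order. Among the 7 sterol and SREBP genes the numbers with a peak were 3, 4, 5 and 6. The mean number of peaks per gene was 1.14, 1.57, 2.14 and 2.86 for the 7 genes, beside 0.560, 0.596, 0.849 and 0.971 for all coding genes. Both rows of means were highest in the same library, shFoxA1 R1881. With each list cut to the length of the shortest by score, the 7 genes had 8, 9, 10 and 9 peaks. Peaks tied at a cut were kept or dropped without regard to score. The INSIG1 peak of shFoxA1 R1881 with a score of 49 was left out this way. The SCAP peaks of shEV R1881 with a score of 20, also left out, may have been too. The deposited peak score is the authors' own, and neither labels nor headers define it. Scores are therefore read as a rank within their own list, given as a percentile (100 is the strongest), and ranks of different lists do not measure a change.

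**Figure D2:**
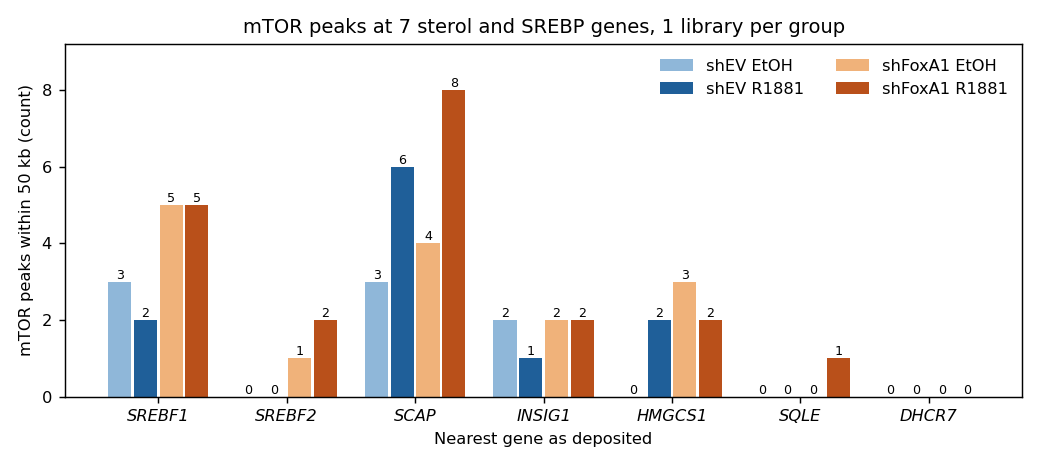
Number of mTOR peaks within 50 kb assigned to each gene (vertical axis, count; bars, the 4 libraries, 1 per group). SCAP has the most peaks in both R1881 libraries, 6 and 8, and DHCR7 has none in any library.

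SREBF1, the gene of SREBP1, had 3 peaks in EtOH and 2 in R1881 with shEV, and 5 in each with shFoxA1. It lies on the minus strand at chr17:17811334-17836986. A region just inside the gene, in exon 1 or intron 1 as annotated, was called in all 4 lists. In shEV EtOH it spanned chr17:17836091-17836952 with a score of 50 (percentile 38.4). In shEV R1881 the score was 27 (10.6). In shFoxA1 EtOH the region was called as 2 peaks, with scores of 49 (36.6) and 34 (18.6). The shFoxA1 R1881 peak scored 57 (45.6). None of these peaks reached the start itself: the nearest edges were 34, 137, 93 and 146 bp past it in the same order of libraries. The calls were thus constant in place and of low to middle rank.

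A second SREBF1 site, just before an internal start, was called only after androgen. SREBF1 has an internal start, placed by the files at chr17:17823630, in addition to the outer one at chr17:17836986. Peaks in front of the internal start were present in shEV R1881 (chr17:17823814-17824127, score 34, percentile 19.3) and in shFoxA1 R1881 (chr17:17823849-17824278, score 83, percentile 64.7). Their centres lay 340 and 433 bp before that start. Neither EtOH list had a peak at that place. Past the same internal start, however, each EtOH list had a peak. Their centres lay 3552 bp past it in shEV EtOH (score 42) and 1151 bp past it in shFoxA1 EtOH (score 34). Neither peak was annotated to a repeat, and they had 61.8% and 59.8% G and C.

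Upstream of the outer start, a G and C rich site was called in 3 lists and missed in shEV R1881. It scored 27 in shEV EtOH, 58 in shFoxA1 EtOH and 27 in shFoxA1 R1881, at 3074, 3184 and 3264 bp before the start the file used. Farther out, both shFoxA1 lists had overlapping peaks 40288 and 40789 bp upstream, in intron 6 of 13 of a neighbouring gene, with scores of 58 and 34. Each of the other 3 peaks was in 1 list: intron 3 of 19 in shEV EtOH (score 42), intron 1 of 18 in shFoxA1 EtOH (34), and a MIRb repeat 1677 bp upstream in shFoxA1 R1881 (34).

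The strongest peaks along SREBF1 were not assigned to it. Another 9 peaks near the end of the gene carry the name of MIR6777, a microRNA gene nested there, so the rule leaves them out. They numbered 3 in shFoxA1 EtOH and 2 in each other list. The highest scores among them were 76, 76, 177 and 175 (percentiles 60.1, 59.7, 85.2 and 86.4), above every SREBF1 peak of the same list. In shFoxA1 R1881 a single peak of 4074 bp (chr17:17809713-17813786) spanned ground that 2 separate peaks covered in each of the other lists. The gene end was thus called with the empty vector and with the FoxA1 hairpin, in both treatments.

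**Figure D3:**
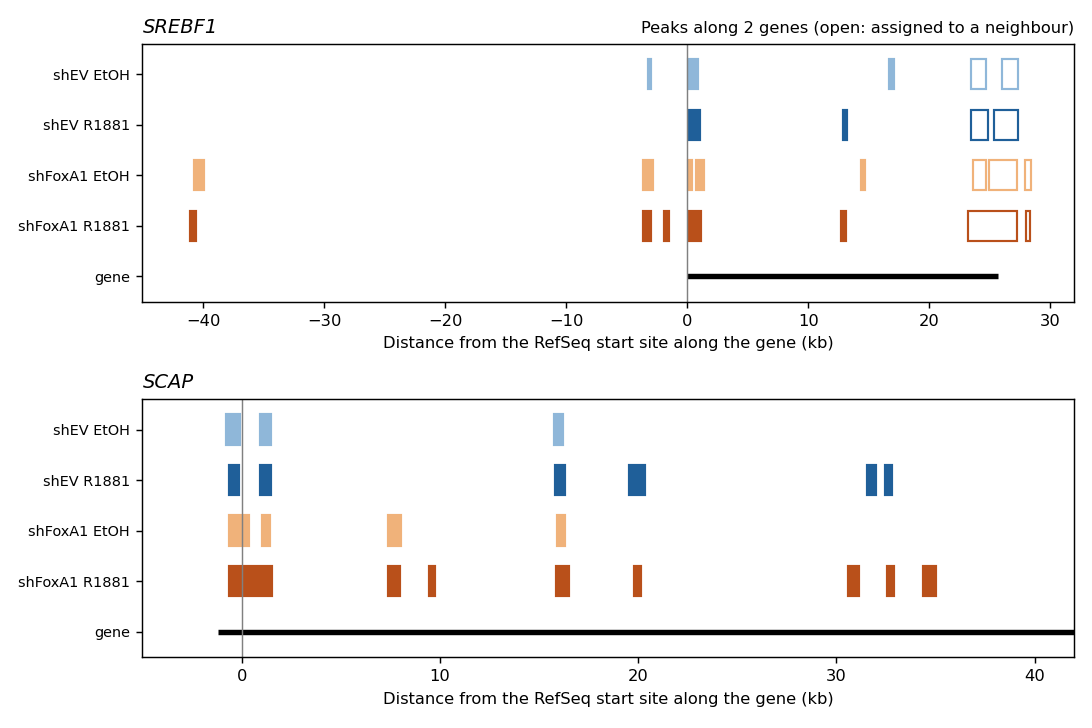
mTOR peaks along SREBF1 and SCAP (horizontal axis, kb along the gene from the RefSeq start; 1 row per library; filled bars, peaks assigned to the gene; open bars, peaks assigned to a neighbour; black line, the gene, with SCAP running past the right edge). Peaks near 13 kb in SREBF1 appear in the 2 R1881 rows only, and the open bars at the end of SREBF1 appear in all 4 rows.

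SREBF2, the gene of SREBP2, had peaks in both treatments with the FoxA1 hairpin and in neither with the empty vector. It runs on the plus strand at chr22:41833105-41907305. In shFoxA1 EtOH a single peak of 1632 bp (chr22:41832481-41834112) lay across the start with a score of 123 (percentile 76.6). The shFoxA1 R1881 list had 2 peaks inside the same span, one before the start (chr22:41832713-41833031, score 65, percentile 52.9) and one after it (chr22:41833367-41833938, score 83, percentile 64.7). The latter fell on an exon of a non-coding transcript. No peak lay within 50 kb in either shEV list, where the nearest centres were 81834 and 77443 bp away. The shFoxA1 EtOH peak covered the whole window printed above, and the shFoxA1 R1881 peak before the start covered the part with the sterol element core but not the bases next to the start.

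SCAP, the escort of SREBP, had the most peaks of the 7 genes in the 2 R1881 lists, 6 with shEV and 8 with shFoxA1, against 3 and 4 in EtOH. At least as many peaks were found at 4.41% and 0.319% of coding genes in the shEV lists (EtOH, R1881) and at 3.55% and 0.349% in the shFoxA1 lists. Some R1881 peaks of SCAP were of low rank. They scored 20 in shEV (percentile 3.99) and 20 to 41 in shFoxA1 (4.04 to 28.4). In EtOH the lowest SCAP scores were 76 with shEV (60.1) and 34 with shFoxA1 (18.6). Low-ranked peaks are the first to be removed when lists are cut to equal length. SCAP is long (63447 bp), all 21 of its peaks lie in it, and the part of gene length in the count was not tested. The gene lies on the minus strand at chr3:47413681-47477127, and the start used by the files is at 47475941.

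The SCAP promoter held the highest-scoring peak of the 7 genes in shEV EtOH, shFoxA1 EtOH and shFoxA1 R1881. In shEV EtOH it covered chr3:47476046-47476719 with a score of 215 (percentile 89.1). The shEV R1881 peak, chr3:47476067-47476596, scored 135 (80.5), second there to a peak near HMGCS1. In shFoxA1 EtOH the peak extended over the start, at chr3:47475589-47476602, with a score of 456 (96.0). The shFoxA1 R1881 peak was 2191 bp long, at chr3:47474391-47476581, with a score of 269 (92.3). It also took in a site in intron 1, on an AluJo repeat, that the other lists called apart with scores of 125 (78.0), 85 (64.9) and 94 (67.4). The shEV peaks stopped short of the start, at positions -105 and -126 relative to it, and both shFoxA1 peaks crossed it.

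Intron 1 of SCAP held most of its other peaks. A MER11A element, a long terminal repeat of the ERVK family, was called in all 4 lists, with scores of 76 (60.1), 95 (69.3), 94 (67.4) and 132 (80.4). Its centre was 15993 to 16183 bp past the start. A pair of regions was called in both R1881 lists but in neither EtOH list. The first, on an L1M5 element, scored 58 in shEV R1881 (46.2) and 20 in shFoxA1 R1881 (4.04), at 19943 and 19975 bp. The second, not annotated to a repeat, scored 20 in shEV R1881 (3.99) and 65 in shFoxA1 R1881 (52.9), at 32623 and 32718 bp. In each region 1 of the 2 scores was among the lowest of its list, so these androgen-only calls include peaks close to the calling limit.

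The remaining SCAP peaks were weaker or in fewer lists. Both shFoxA1 lists had a peak on an L1PA5 element 7715 and 7685 bp past the start, with scores of 34 and 20. One peak with a score of 20 was in shEV R1881 only. A further 3 were in shFoxA1 R1881 only, with scores of 20, 27 and 41, the latter 2 on L1 elements. Of the 21 SCAP peaks, 13 were annotated to a repeat. The annotation gives 1 label per peak, so a peak without a repeat label can still overlap a repeat. The 2191 bp shFoxA1 R1881 peak, which takes in the AluJo site, is such a peak.

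INSIG1, the sterol-dependent anchor of SCAP, had 1 peak in shEV R1881 and 2 in each other list. It lies on the plus strand at chr7:155297878-155310235. Every list had a peak near the start, but not at one place. The shEV EtOH peak lay upstream (chr7:155297014-155297432, score 20, percentile 4.37). In shEV R1881 the peak was in intron 2 of 3 (chr7:155298410-155298992, score 27, percentile 10.6). These 2 did not overlap each other. The shFoxA1 EtOH peak bridged them, from chr7:155297389 to 155298501, with a score of 58 (44.8), and the shFoxA1 R1881 peak lay upstream again (score 49, 37.4). A distal site about 31 kb upstream was called in 3 lists and missed in shEV R1881. It scored 27 in shEV EtOH (11.1), 113 in shFoxA1 EtOH (74.0) and 57 in shFoxA1 R1881 (45.6). None of the 7 INSIG1 peaks was annotated to a repeat.

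HMGCS1, the synthase that makes HMG-CoA early in the pathway, had 0 peaks in EtOH and 2 in R1881 with shEV, and 3 and 2 with shFoxA1. It lies on the minus strand at chr5:43287470-43313412. Its promoter was called in shFoxA1 EtOH only (chr5:43313402-43313826, score 27, percentile 10.1). The other 6 peaks lay upstream, outside the gene, and all 6 were on repeats. An L1PA6 element at chr5:43325850-43326498 was called in both R1881 lists but in neither EtOH list, with scores of 146 (percentile 82.3) in shEV R1881 and 74 (59.4) in shFoxA1 R1881. The shEV R1881 peak was the highest-scoring one of the 7 genes in that list. An LTR10F element 22940 bp upstream was called in shEV R1881 (50) and shFoxA1 EtOH (84). An L1PA2 element 31660 bp upstream was called in both shFoxA1 lists (27 and 34). L1PA elements have many similar copies in the genome, and how reads with several matches were treated is not stated by labels or headers, so the position of these peaks is uncertain.

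SQLE, squalene epoxidase, had 1 peak, in shFoxA1 R1881. It spanned the start, 1833 bp wide at chr8:124997765-124999597, with a score of 34 (percentile 19.2). The gene runs on the plus strand at chr8:124998505-125022283. A far higher-scoring site about 21 kb upstream, in an exon of ZNF572, was in all 4 lists, with scores of 506, 462, 498 and 981 (percentiles 96.8, 96.5, 96.5 and 98.9). It is assigned to ZNF572 and not counted for SQLE.

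DHCR7, which catalyses the last step of a route to cholesterol, had no peak in any list. It lies on the minus strand at chr11:71427287-71449043. The nearest peak centres were 80671 bp from its start in shEV EtOH, 33023 bp in shEV R1881, 51678 bp in shFoxA1 EtOH and 14941 bp in shFoxA1 R1881. The last of these, chr11:71433139-71433766, lies within the DHCR7 gene with a score of 41 and is assigned to FLJ42102.

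**Figure D4:**
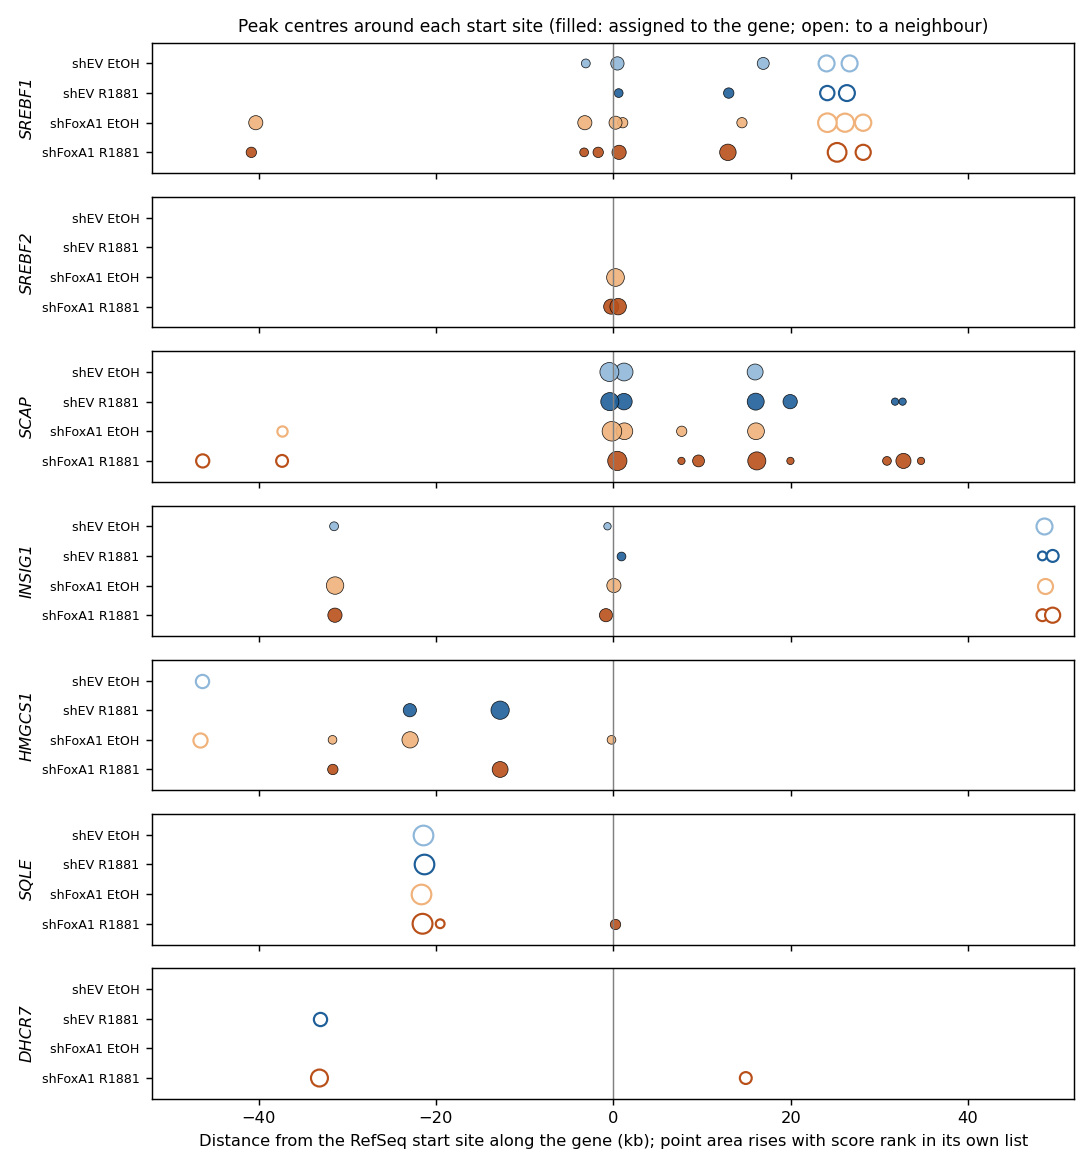
Centres of all mTOR peaks within 50 kb of each start site (horizontal axis, kb along the gene; 1 row per library; filled points, assigned to the gene; open points, assigned to a neighbour; point area rises with the rank of the score in its own list). SREBF2 has points in the shFoxA1 rows only, and SCAP has its largest points at the start in every row.

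The first comparison asked which calls differed between androgen and vehicle in cells with the control vector. A gained peak is one of the first list that no peak of the second overlaps by at least 1 bp, and a lost peak is the converse. With R1881, 7 of 11 peaks were gained (63.6%, Wilson 95% interval 35.4 to 84.8%), 3 of them at SCAP, 2 at HMGCS1, 1 at SREBF1 and 1 at INSIG1. Among all peaks of that list 45.0% were gained. Of the 8 vehicle peaks, 4 were lost (50%, 21.5 to 78.5%), 2 at SREBF1 and 2 at INSIG1, beside 42.6% of all vehicle peaks. Both intervals, which cover counting error only, contain the share of all peaks. SCAP gained 3 and lost 0, and the gained SCAP peaks scored 20 to 58 (percentiles 3.99 to 46.2).

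With the FoxA1 hairpin, R1881 added 9 of 20 peaks (45.0%, 25.8 to 65.8%), beside 44.5% of all peaks. They were 5 at SCAP, 2 at SREBF1, 1 at HMGCS1 and 1 at SQLE. Of 15 vehicle peaks, 3 were lost (20.0%, 7.05 to 45.2%), beside 37.5% of all, 2 of them at HMGCS1 and 1 at SREBF1. SCAP again lost 0, and its gained peaks scored 20 to 65 (percentiles 4.04 to 52.9). The vehicle and androgen lists shared their peaks at SREBF2 and at INSIG1 by the 1 bp rule. Near the INSIG1 start the peaks overlapped only at their ends. The gained and lost shares at the 7 genes did not differ from those of all peaks beyond the counting interval with shEV or with shFoxA1.

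The knockdown comparisons asked which calls differed with the FoxA1 hairpin. In EtOH, 7 of 15 shFoxA1 peaks had no overlap in shEV (46.7%, 24.8 to 69.9%, beside 49.2% of all), 3 of them at HMGCS1, 2 at SREBF1, 1 at SREBF2 and 1 at SCAP. Only 1 of 8 shEV peaks was lost, at SREBF1 (12.5%, 2.24 to 47.1%, beside 28.0% of all). In R1881, 13 of 20 were gained (65.0%, 43.3 to 81.9%, beside 52.8% of all), 4 at SCAP, 3 at SREBF1, 2 at SREBF2, 2 at INSIG1, 1 at HMGCS1 and 1 at SQLE. Of 11 shEV peaks, 3 were lost (27.3%, 9.75 to 56.6%, beside 27.9% of all), 1 each at SCAP, INSIG1 and HMGCS1. Gains outnumbered losses in both treatments, at the 7 genes and in the whole lists. The 4 comparisons share libraries and are not independent of each other.

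**Figure D5:**
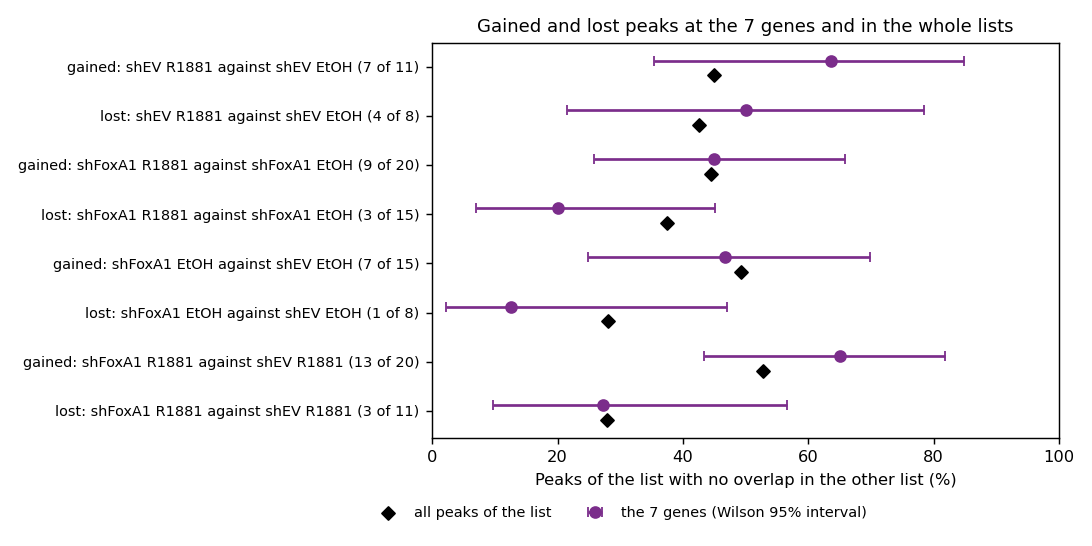
Share of peaks without overlap in the other list (horizontal axis, %) for the peaks of the 7 genes (circles, with Wilson 95% intervals) and for all peaks of the list (diamonds), by comparison. Every diamond lies within the interval beside it.

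Merged over the lists, the 54 peaks formed 24 regions of 61118 in all. A call in both R1881 lists but in neither EtOH list was found for 4 regions (16.7%, 6.68 to 35.9%), beside 5.27% of all regions. They are the SREBF1 site before the internal start, the pair in SCAP intron 1 and the L1PA6 site near HMGCS1. Thus 3 of the 7 genes had such a region, beside 6.82% of coding genes. The genes were chosen with results of these lists known, so this is a description only. With the 4 lists cut to equal length, 2 regions had this pattern, the SREBF1 site before the internal start and the L1PA6 site near HMGCS1. The SCAP region not annotated to a repeat lost its shEV R1881 peak (score 20). That score lay near the cut, where tied peaks were kept or dropped without regard to score. With peaks annotated to repeats left out, 2 had it, the SREBF1 site before the internal start and the SCAP region without a repeat label. Regions called in all 4 lists numbered 4 (16.7%, beside 19.0%), at SREBF1, SCAP (2) and INSIG1, where the INSIG1 region is a chain of partly overlapping peaks. Of the 7 genes, 3 had a region in all 4 lists, beside 22.2% of coding genes. Calls in both shFoxA1 lists and neither shEV list numbered 4 (16.7%, beside 6.91%), 1 each at SREBF1, SREBF2, SCAP and HMGCS1. A further 5 regions were in shFoxA1 R1881 only (20.8%, beside 19.7%). The patterns of both shEV lists alone and of both EtOH lists alone were held by 0 of the 24, and they are rare among all regions too (0.967% and 3.21%).

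Base composition and repeats were read by distance, a peak counting as on a repeat when its annotation named one. Within 2 kb of the start used by the file there were 25 peaks, with a median of 61.6% G and C and 5 on repeats (20.0%). Beyond 2 kb there were 29, with a median of 44.0% and 16 on repeats (55.2%). The ranges of G and C overlapped, 46.8 to 77.2% near the start and 32.1 to 69.0% farther out. All 16 repeat peaks beyond 2 kb were at SCAP (10) and HMGCS1 (6), and the 9 such peaks of SREBF1 and INSIG1 had none. Among all peaks, repeats took 6.29 to 9.73% within 2 kb and 69.2 to 77.5% from there to 50 kb, over the 4 lists. By library, 2 of 8, 5 of 11, 6 of 15 and 8 of 20 peaks were annotated to a repeat, beside 58.1%, 58.2%, 50% and 50.8% of all peaks within 50 kb of a start. Median rank percentiles were 33.8, 38.0, 44.8 and 32.9, beside 46.9, 46.2, 44.8 and 45.6 for all peaks within 50 kb. Apart from the SCAP promoter, most calls at these genes were therefore of middle or low rank. At the edge of the rule, the farthest peak counted was the SREBF1 one at 40789 bp, and the nearest left out was an HMGCS1 peak at 51201 bp in shFoxA1 R1881, with a score of 74.

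Other genes of sterol metabolism were taken as 3 lists of 40 genes in all. Of 17 other sterol enzymes, 7 (EtOH) and 8 (R1881) had a peak with shEV, and 9 and 12 with shFoxA1. Of 10 other genes of SREBP processing and degradation, the counts were 4, 4, 5 and 6. Of 13 genes of sterol uptake, transport, storage and efflux, they were 4, 4, 10 and 10. Over the 40 genes the shares were 37.5%, 40.0%, 60.0% and 70.0%, to be read beside 36.5%, 37.5%, 49.1% and 51.6% of coding genes. Both sets of shares were higher in the shFoxA1 libraries.

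Androgen-only regions, called in both R1881 lists but in neither EtOH list, occurred at 8 of the 40 genes (20.0%, beside the 6.82% of coding genes). The lists were chosen with earlier results of these data known, so this is a description only. This share was not recomputed under the alternative settings. Some of the calls were of low rank, such as one at SOAT1 in shEV R1881 (score 20, percentile 3.99). At PMVK, a kinase of the mevalonate route, an AluJr intron site scored 34 in shEV R1881 and 175 in shFoxA1 R1881. The sterol dehydrogenase gene NSDHL had an L1PA6 intron site with scores of 42 and 102. SC5D, a late desaturase, had one on an L1M4 element with scores of 67 and 34. These 3 enzyme sites were all on repeats. RNF145, a ubiquitin ligase gene, had an intron site not annotated to a repeat, with scores of 58 and 164. SOAT1, which esterifies cholesterol for storage, had 2 such regions, with scores of 95 and 74 at the stronger in shEV R1881 and 20 and 65 at the other. SCARB1, a lipoprotein receptor, had one on an L2a element (67 and 142), and NPC1, the lysosomal cholesterol exporter, had one in an intron, centred at -25920 bp from its start in shEV R1881 (42 and 49).

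Regions called in all 4 lists also occurred at 8 of the 40 genes (20.0%, beside the 22.2% of coding genes). The promoter of CYP51A1, the lanosterol demethylase, was the top site of the enzyme list in every library, with scores of 158, 168, 375 and 306 (percentiles 83.6, 85.4, 94.7 and 93.5). PMVK had such a region at its promoter, with scores of 76, 85, 66 and 164, and another with scores of 50, 58, 84 and 112. TM7SF2, a sterol reductase gene, had 2 as well, the upstream one with scores of 147, 67, 284 and 186. HSD17B7 had one on an L1PA6 element with scores of 34, 67, 27 and 74. RNF139, another ubiquitin ligase gene, led the processing list in every library, with scores of 191, 85, 155 and 186 in an intron. SCARB1 had 2 such regions, the stronger with scores of 42, 76, 103 and 197. ABCA1, the cholesterol efflux transporter, had one about 40 kb upstream, with scores of 85, 85, 134 and 122. At STARD4, a sterol carrier, the shFoxA1 peaks at the promoter scored 49 and 41. They were part of a merged region that also held peaks of both shEV lists, which were not counted for STARD4. The top site of the transport list was at LIPA in shEV EtOH (score 95), SOAT1 in shEV R1881 (95), ABCA1 in shFoxA1 EtOH (134) and SCARB1 in shFoxA1 R1881 (197).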

How the data were processed

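Chromatin bound by mTOR was mapped in 4 LNCaP libraries, 1 per group. Per the submitters' processing notes, HOMER 4.11.1, MACS2, BWA 0.7.12, deepTools 3.5.0, Trimmomatic 0.36 and Picard 2.0.1 were used with hg38, and their settings are not stated there. Per the file headers, the deposited lists are HOMER annotations that give for each peak a score, a distance to the nearest start site in bp, and the fraction of G and C bases (printed as a percent). The deposited score, a whole number made by the authors, has no stated definition and ranked peaks only within its own list, ties sharing a mean rank. Depth is unknown.

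From these lists, peaks on chromosomes 1 to 22, X and Y were selected by gene name and distance, overlapped at 1 bp or more, and merged into regions with Python 3.11.15, pandas 2.3.3 and numpy 2.4.6. Shares carry Wilson 95% intervals from statsmodels 0.14.6, which cover counting error only. The overlap code was tested on simulated peaks. Gene spans and promoters came from RefSeq. All 7 genes were named, and genes of the 3 pathway lists were named when they held a region in both R1881 lists but in neither EtOH list, a region in all 4 lists, or the top score of their list in a library; some genes of these lists are counted but not reported here by name. Members and lists were chosen with earlier results of these data known. Alternatives were a 10 kb window, the 10000 top peaks, lists of equal length, no repeats, a 50% overlap, a 500 bp gap, and assignment by position (chosen after seeing the data).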

Additional observations from a re-analysis of the deposited data

Results flagged for a closer look

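HMGCS1 changed its number of peaks in opposite directions with R1881. The count rose by 2 with the empty vector (0 to 2) and fell by 1 with the FoxA1 hairpin (3 to 2). The difference, shFoxA1 minus shEV, was -3. With 1 library per group this difference was not tested. The shFoxA1 R1881 count leaves out an HMGCS1 peak at 51201 bp (score 74), just past the 50 kb limit. The shFoxA1 counts also include low-ranked peaks. In EtOH the promoter and L1PA2 peaks scored 27 (percentile 10.1), and in R1881 the L1PA2 peak scored 34 (19.2).

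Near the end of SREBF1, 9 peaks are assigned to MIR6777 and so stand outside the counts of the 7 genes, although they include the highest scores along that gene. Upstream of SQLE, 5 peaks are assigned to ZNF572, 1 in each list at the same exon and 1 more in shFoxA1 R1881. These signals were noted because they lie in rows of the lists that the counts do not use, and no control library gives a level for them.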

How the results depend on the processing

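Of 83 values recomputed under alternatives, 47 stayed within 1.5 times the reported count and 36 moved further. Values are given in the order shEV EtOH, shEV R1881, shFoxA1 EtOH, shFoxA1 R1881. With each list cut to its 10000 top-scoring peaks, the peaks at the 7 genes numbered 2, 4, 3 and 2, so the order of the libraries was not kept. R1881 then gained 2 and lost 0 peaks with shEV and gained 1 with shFoxA1. The knockdown gained 2 in EtOH, and gained 0 and lost 1 in R1881. After this cut 1 region was androgen-only. It was the MER11A site of SCAP, which the full lists called in all 4 libraries, and not one of the 4 reported. Its shFoxA1 EtOH peak (score 94) fell below the cut. Its shEV EtOH peak (score 76) was tied with peaks at the cut and was dropped without regard to score. This androgen-only call therefore depends on how ties were broken. With a 10 kb window, shEV R1881 had 5 peaks and shFoxA1 R1881 had 11. R1881 then gained 2 with shEV and 4 with shFoxA1, the knockdown gained 4 in EtOH, gained 8 and lost 1 in R1881, and 1 region was androgen-only. With lists of equal length (24948 peaks), shFoxA1 R1881 had 9 peaks, and R1881 gained 3 with shFoxA1. The knockdown then gained 3 in EtOH and 4 in R1881, and 2 regions were androgen-only. These counts depend in part on which of the peaks tied at the cut were kept. Without peaks annotated to repeats, the last 3 lists had 6, 9 and 12 peaks, and R1881 gained 4 with shEV and 4 with shFoxA1. The knockdown then gained 4 in EtOH and 8 in R1881, and 2 regions were androgen-only. Where 50% of the smaller peak had to overlap, R1881 lost 5 with shFoxA1 and the knockdown lost 2 in EtOH. Counting any peak by position, an alternative chosen after seeing the data, gave 13 peaks in shEV EtOH and 17 in shEV R1881. Allowing a gap of 500 bp moved none of the 9 values it could change. These settings remove or add peaks by construction, and no further cause was tested. No paired analysis was possible because each group is a single library. Without read totals, a peak missing from a list was not detected at an unknown depth, and its absence from the chromatin is not shown.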

Other observations

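Counting peaks by place instead of by the assigned gene, 13 and 17 peaks with shEV (EtOH and R1881) and 22 and 30 with shFoxA1 were centred within 50 kb of a start site of the 7 genes, and 5, 6, 6 and 7 of the genes had at least 1. Beyond the sites already described, the neighbours were BLACE, CCL28, ELP6 and MIR6754. A site about 48 kb past the INSIG1 start, assigned to BLACE, was called in all 4 lists, with highest scores of 76, 42, 66 and 65. Upstream of HMGCS1, an LTR8B element assigned to CCL28 was called in both EtOH lists (50 and 58) and neither R1881 list. The MIR6754 site near DHCR7 was called in both R1881 lists (50 and 92) and neither EtOH list, at -33023 and -33133 bp from the DHCR7 start. The ELP6 promoter, at -37404 bp from the SCAP start in shFoxA1 EtOH, was called in both shFoxA1 lists (34 and 41) and neither shEV list.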
